A study of Mus musculus with 4 samples.

Results

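C-type lectin receptors are surface proteins of macrophages and dendritic cells that bind sugars and lipids of fungi, bacteria and damaged cells. The 10 mouse genes described here were taken by name as pattern-recognition receptors of this family, leaving out the mannose and galactose lectins. They are Clec7a, Clec4n, Clec4d, Clec4e, Clec12a, Clec4a1, Clec4a2, Clec4a3, Clec5a and Cd209a. Of the 15114 Entrez-numbered genes listed in any library, 9 belong to this set, since Cd209a was listed in none. The rule that names them uses no measured value, but the receptors were chosen with earlier results of these data known.

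RNA-seq was done on macrophages grown from C57BL/6 bone marrow for 7 days with M-CSF (20 ng/ml), the growth factor that drives macrophage differentiation, and then stimulated for 24 h with IL-4 (20 ng/mL). The PERK KO group held 2 libraries of the genotype LysMcre x Eif2ak3 fl/fl, and the PERK WT group held 2 libraries of the genotype Eif2ak3 fl/fl. Eif2ak3 encodes PERK, a kinase of the endoplasmic reticulum that phosphorylates eIF2α under stress. Both groups carry the floxed alleles, Cre sits in the lysozyme locus Lyz2 and is therefore active in myeloid cells, and a PERK WT group with LysMcre was not analysed here, so Cre and loss of PERK cannot be told apart. Unstimulated macrophages were not analysed here, so every value below is a level under IL-4 and none is a response to IL-4. The labels do not say whether the libraries of a group came from separate mice or cultures, so p-values measure only the spread between these libraries.

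The labelled cell type and genotype were checked first. All 7 macrophage markers were listed in every library, and they summed to 1495 and 1241 FPKM in PERK KO libraries, against 1279 and 1661 FPKM in PERK WT libraries (FPKM, fragments scaled by gene length and by the size of the library). Lymphocyte, stromal, and mast cell, basophil and eosinophil markers each summed to under 1 FPKM in every library, and neutrophil markers to between 2.82 and 4.81 FPKM. The dendritic cell list summed to 160 and 166 FPKM in PERK KO, against 169 and 202 FPKM in PERK WT. The erythroid and platelet list summed to 614 and 311 FPKM in PERK KO, against 370 and 453 FPKM in PERK WT, and nearly all of it was Pf4, a chemokine that macrophages also make, while the 6 other markers were at 0.09 FPKM or less. Eif2ak3 was at 6.55 and 4.88 FPKM in PERK KO, against 10.9 and 8.88 FPKM in PERK WT. The tables give a value per gene and not per exon, and where the floxed exons lie is not stated, so the remaining Eif2ak3 reads cannot be placed. Lyz2, the locus that carries Cre, was at 253 and 201 FPKM in PERK KO, against 627 and 699 FPKM in PERK WT. PERK KO replicate 2 stood apart: 41.1% of its summed FPKM fell on Entrez-numbered genes, against 54.8% in PERK KO replicate 1 and 59.0% and 57.6% in PERK WT. PERK WT replicate 1 was low in some genes: the macrophage marker Fcgr1 was at 34.0 and 25.5 FPKM in PERK KO, against 7.27 and 33.6 FPKM in PERK WT, and the interferon-induced Isg15 was at 26.4 and 25.1 FPKM in PERK KO, against 4.20 and 21.1 FPKM in PERK WT. Clec4a1 and Src were lowest in that library too, and their values without it stand beside their results.

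Many receptors of this family either switch phagocytes on or hold them back. Dectin-1 (Clec7a) carries its own hemITAM, a short tyrosine motif that recruits the kinase Syk, whereas Dectin-2 (Clec4n), MCL (Clec4d), Mincle (Clec4e) and MDL-1 (Clec5a) signal through the partner chains FcRγ and DAP12, which bring in Syk in the same way. Syk then works through PKCδ and the CARD9, BCL10 and MALT1 complex to NF-κB. MICL (Clec12a) and DCIR (Clec4a2) carry an ITIM, a tyrosine motif that recruits phosphatases such as SHP-1 and dampens these signals. Clec4a1 (DCIR4) and Clec4a3 (DCIR3) are close relatives of DCIR without an ITIM. Like Cd209a, they were counted here neither as activating nor as ITIM receptors.

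Between the genotypes the receptors did not move as one group. None of the 7 receptors that entered the test passed an adjusted p of 0.05 by limma, a linear model fitted here across the 9501 genes whose values averaged 1 FPKM or more. Eif2ak3 and Lyz2, the genotype check, did not pass it either (limma adjusted p = 0.776 and 0.413). For each of them both PERK KO libraries lay below both PERK WT libraries, so the test also missed these differences. Clec4a1 was above PERK WT in both PERK KO libraries and Clec4a2 was below it in both. The ratio of Clec4a1 to Clec4a2 inside the libraries, a pair chosen after the values were seen, differed by 0.97 on the log2 scale. Clec7a made up most of the family's summed FPKM in every library. Over all tested genes limma called 0% higher and 0.0211% lower in PERK KO at that threshold. At an unadjusted p under 0.05 it gave 1 receptor higher (Clec4a1) and 1 lower (Clec4a2), against 0.705% of all tested genes higher and 3.52% lower. Both PERK KO libraries were above both PERK WT libraries for 1 of the 7 receptors, against 4.14% of tested genes, and below them for 4, against 35.6%.

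The values as deposited shift with the library. The median tested gene had a log2 change (PERK KO minus PERK WT) of -0.14, so log2 changes are given relative to that median gene, while p-values refer to the deposited values unless stated. When the libraries were put on one scale by median ratios, both PERK KO libraries were above PERK WT for 2 of the 7 receptors, against 15.0% of tested genes, and below for 3, against 14.1%. At an unadjusted p under 0.05 that scaling gave 2 receptors higher, Clec4a1 and Clec4a3, and 0 lower, against 1.87% of all tested genes higher and 1.27% lower. Relative to the median gene, 2 of the 7 receptors had a positive log2 change and 5 a negative one, and the median over the 7 was -0.04, against 0 for all tested genes by construction.

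**Figure D1:**
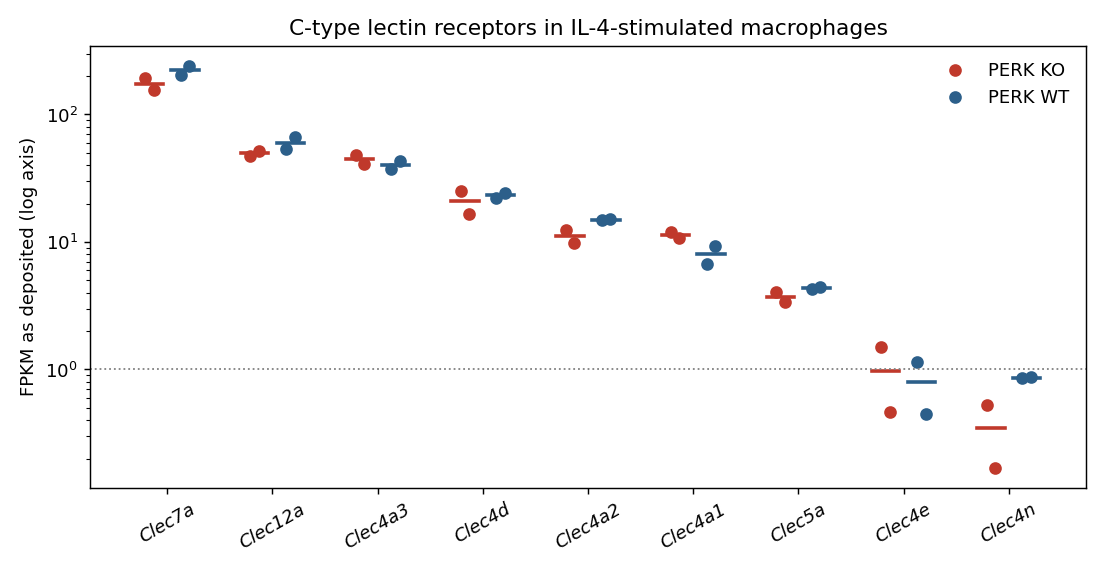
FPKM as deposited, on a log axis, of the 9 receptors listed in any library, ordered by their mean over the 4 libraries. Points are libraries, bars are group means (n = 2 each), and the dotted line is the mean of 1 FPKM needed for the test. Clec7a stood highest in every library, between 157 and 240.0 FPKM, and Clec4e and Clec4n lay lowest.

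The levels spanned over 2 orders of magnitude. By the mean over the 4 libraries the order was Clec7a at 198 FPKM, Clec12a at 54.9, Clec4a3 at 42.5, Clec4d at 22.2, Clec4a2 at 13.03, Clec4a1 at 9.70, Clec5a at 4.04, Clec4e at 0.89 and Clec4n at 0.61. Over the 4 libraries the ranges of Clec12a and Clec4a3 touched, as did those of Clec4a2 and Clec4a1 and those of Clec4e and Clec4n, so these neighbours in the order were not separated. The other steps between neighbours were larger than the spread of the libraries. Clec7a ranked 208th and 215th among the Entrez-numbered genes of the PERK KO libraries, against 200th and 174th in the PERK WT libraries.

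Of the activating receptors, Clec7a, which binds fungal β-glucan, was at 192 and 157 FPKM in PERK KO, against 205 and 240.0 FPKM in PERK WT. Both PERK KO libraries lay below both PERK WT libraries on this scale and after median-ratio scaling. The log2 change was -0.21 with a standard error of 0.20 (limma adjusted p = 0.776), and 8.80% of tested genes had a lower one. It was -0.11 without PERK WT replicate 2 and -0.33 without PERK WT replicate 1. In such bulk RNA, fewer cells with a transcript and less of it per cell cannot be told apart.

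Clec4d encodes MCL, which binds mycobacterial glycolipid and partners with Mincle. It was at 25.3 and 16.7 FPKM in PERK KO, against 22.2 and 24.4 FPKM in PERK WT. The PERK KO libraries lay on either side of the PERK WT libraries, and the log2 change was -0.03 with a standard error of 0.21 (limma adjusted p = 0.797). Clec5a, the DAP12-coupled receptor that also binds flaviviruses, was at 4.04 and 3.41 FPKM in PERK KO, against 4.25 and 4.46 FPKM in PERK WT. The PERK KO values were the lower ones, but the log2 change relative to the median gene was -0.04 with a standard error of 0.16 (limma adjusted p = 0.776).

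2 more receptors that pair with FcRγ were close to the limit of the tables and did not enter the test, since their means were under 1 FPKM. Clec4n, the Dectin-2 receptor for fungal mannans, was at 0.53 and 0.17 FPKM in PERK KO, against 0.86 and 0.87 FPKM in PERK WT. A fit with no filter, added after the values were seen, gave it a log2 change of -0.42, relative to the median gene of that fit, with a standard error of 0.15 (limma adjusted p = 0.803), and -0.27 without PERK KO replicate 2. Clec4e, the Mincle receptor for mycobacterial cord factor, was at 1.49 and 0.46 FPKM in PERK KO, against 1.15 and 0.45 FPKM in PERK WT. In both genotypes replicate 1 held the high value and replicate 2 the low one, so the groups overlapped (log2 change 0.17, standard error 0.34, limma adjusted p = 0.905 with no filter).

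Of the ITIM receptors, Clec12a, which senses uric acid crystals and dead cells, was at 47.2 and 51.8 FPKM in PERK KO, against 53.6 and 67.0 FPKM in PERK WT. The PERK KO libraries lay below PERK WT as deposited and overlapped with them after median-ratio scaling. The log2 change was -0.13 with a standard error of 0.18 (limma adjusted p = 0.776). Clec4a2, which encodes DCIR, was at 12.3 and 9.81 FPKM in PERK KO, against 14.9 and 15.0 FPKM in PERK WT. Both PERK KO libraries were below PERK WT on either scale. Its log2 change of -0.27 with a standard error of 0.16 was the lowest of the 7 tested receptors (limma adjusted p = 0.776), and 5.21% of tested genes had a lower one.

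Clec4a1, a relative of DCIR without an ITIM, was at 12.1 and 10.7 FPKM in PERK KO, against 6.74 and 9.30 FPKM in PERK WT. Both PERK KO libraries were above both PERK WT libraries on either scale. Its log2 change of 0.61 with a standard error of 0.18 was the highest of the 7, with 1.59% of tested genes above it (limma adjusted p = 0.776). The mean FPKM was 1.42 times that of PERK WT. The change was 0.40 without PERK WT replicate 1 and 0.81 without PERK WT replicate 2.

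Clec4a3, the other relative without an ITIM, was at 47.9 and 41.2 FPKM in PERK KO, against 37.5 and 43.4 FPKM in PERK WT. The groups overlapped as deposited, and both PERK KO libraries were above PERK WT after median-ratio scaling. The log2 change was 0.27 with a standard error of 0.17 (limma adjusted p = 0.795 as deposited and 0.999 after median-ratio scaling), and 0.17 without PERK WT replicate 1. Cd209a, a mouse relative of the dendritic cell lectin DC-SIGN, was listed in no library. A gene absent from a table was taken as 0, which need not mean that it was silent. Of the dendritic cell list, Itgax, which macrophages also express, made up nearly all of the summed FPKM, Zbtb46, a factor of classical dendritic cells, was between 0.77 and 1.0 FPKM, and Flt3, Ccr7, Xcr1 and Siglech were at 0.25 FPKM or less.

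**Figure D2:**
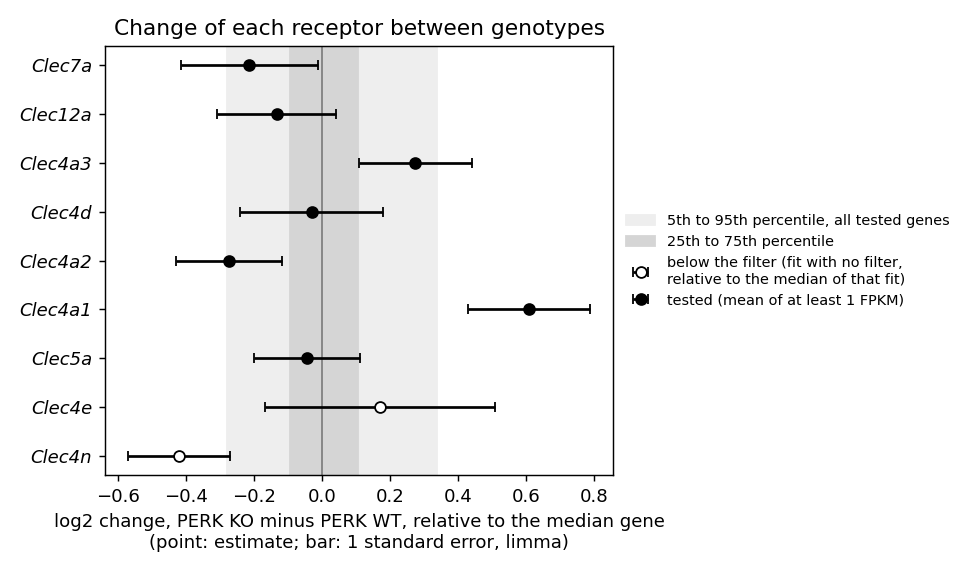
Log2 change (PERK KO minus PERK WT) relative to the median gene, with bars of 1 standard error from limma, for the 9 listed receptors. Filled points are relative to the median tested gene, and the open points of Clec4n and Clec4e to the median of the fit with no filter. Grey bands hold the middle of all 9501 tested genes, from -0.28 to 0.34 for the 5th to the 95th percentile. Of the tested receptors Clec4a1 at 0.61 lay outside the wider band, and Clec4a2 at -0.27 lay at its lower edge.

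Comparisons inside a library do not depend on how libraries are scaled. They are given as values with no test, since the smallest exact permutation p that 2 against 2 libraries allow is 0.333. The ratio of Clec4a1 to Clec4a2 was 0.979 and 1.09 in PERK KO, against 0.451 and 0.618 in PERK WT, a difference of 0.97 on the log2 scale. The ratio of Clec4a3 to Clec4a2 was 3.88 and 4.20 in PERK KO, against 2.51 and 2.89 in PERK WT, a log2 difference of 0.58. The ratio of Clec4a1 to Clec4a3 was 0.252 and 0.259 in PERK KO, against 0.180 and 0.214 in PERK WT. For each of these pairs both PERK KO libraries were above both PERK WT libraries. For Clec4a1 to Clec4a2 this follows from the separate values of the genes, which lay apart in opposite directions. The ratio of Clec7a to Clec12a was 4.06 and 3.03 in PERK KO, against 3.82 and 3.58 in PERK WT, so the groups overlapped. The pairs within the DCIR group were chosen after their values were seen. Leaving out each library in turn gave log2 differences between 0.74 and 1.19 for Clec4a1 to Clec4a2 and between 0.48 and 0.69 for Clec4a3 to Clec4a2.

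As a share of the summed FPKM of the family, Clec4a1 took 3.53% and 3.67% in PERK KO, against 1.95% and 2.30% in PERK WT. Clec4a3 took 14.0% and 14.1% in PERK KO, against 10.8% and 10.7% in PERK WT. Clec7a took 56.0% and 53.9% in PERK KO, against 59.2% and 59.3% in PERK WT. The shares of Clec4a1 and Clec4a3 were thus larger, and that of Clec7a smaller, in both PERK KO libraries, and shares of one whole cannot move independently. The family summed to 343 and 291 FPKM in PERK KO, against 346 and 405 FPKM in PERK WT. Unlike the shares, this sum depends on the scaling. After median-ratio scaling it was 339 and 326 in PERK KO, against 329 and 382 in PERK WT, so the groups overlapped.

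The balance of receptor classes did not separate the genotypes. The summed FPKM of the activating receptors Clec7a, Clec4n, Clec4d, Clec4e and Clec5a was 3.75 and 2.88 times that of the ITIM receptors Clec12a and Clec4a2 in PERK KO, against 3.41 and 3.29 times in PERK WT, a log2 difference of -0.03. Without the most abundant receptor of each class, Clec7a and Clec12a, the ratio was 2.54 and 2.11 in PERK KO, against 1.91 and 2.01 in PERK WT, with both PERK KO libraries above.

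**Figure D3:**
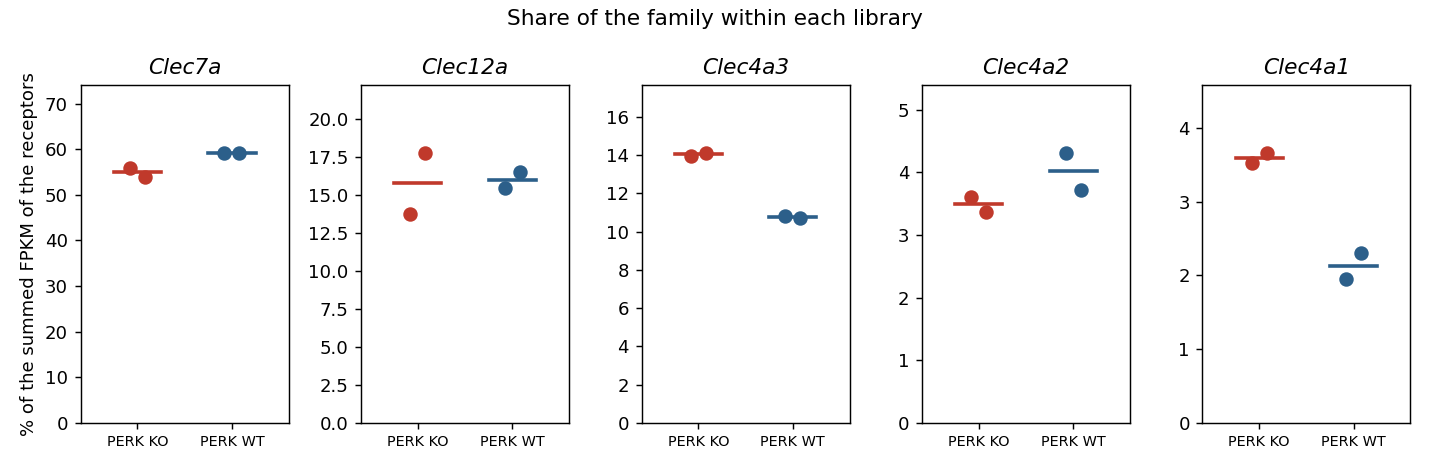
Share of each of 5 receptors in the summed FPKM of the family, in percent, within each library. Points are libraries and bars are group means (n = 2 each), and each panel has its own axis from 0. Clec4a1 and Clec4a3 took larger shares in both PERK KO libraries than in both PERK WT libraries, Clec7a and Clec4a2 smaller ones, and Clec12a overlapped.

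Markers of monocytes, the blood precursors of macrophages, went the same way as Clec4a1. All 4 listed markers were found in some library, and they summed to 15.1 and 13.4 FPKM in PERK KO, against 8.94 and 9.79 FPKM in PERK WT. Ccr2, the monocyte chemokine receptor, made up most of that sum, at 13.6 and 12.8 FPKM in PERK KO, against 8.14 and 9.61 FPKM in PERK WT. Ly6c2, which defines inflammatory monocytes, was at 0.38 and 0 FPKM in PERK KO, against 0 FPKM in both PERK WT libraries, and Plac8 was at 0.60 FPKM or less in every library. The part of monocytes in the values of Clec4a1 and Clec4a3 was not tested.

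By position, 9 of the 10 genes lie on chromosome 6 (coordinates of mm10 from RefSeq), the chromosome of Eif2ak3 itself. Clec4a1, Clec4a3, Clec4a2, Clec4n, Clec4d and Clec4e stand in this order within 368024 bases, from 122921848 to 123289871, the Dectin-2 cluster. Clec12a and Clec7a bound the Dectin-1 cluster, from 129349783 to 129472785. Clec5a lies apart, at 40574898 to 40585805, and Cd209a is on chromosome 8, at 3743395 to 3748984. The gap between Eif2ak3 and Clec4a1 is 52.0 Mb, and that between Clec5a and Eif2ak3 is 30.3 Mb. Both groups carry the floxed allele, and the part of strain-derived sequence around it in these values was not tested.

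Clec4a1, at 122921848 to 122934619, and Clec4a3, at 122952515 to 122969878, are next to each other, whereas Clec4a2 follows at 123122690 to 123143999. Between Clec4a3 and Clec4a2 lie Clec4a4 (DCIR2), an ITIM relative, and Clec4b1, both outside the set. Clec4a4 was at 1.08 and 1.09 FPKM in PERK KO, against 0.67 and 0.51 FPKM in PERK WT, also with both PERK KO libraries above. Its mean of 0.84 FPKM kept it out of the test (limma adjusted p = 0.803 with no filter). Clec4b1 was at 4.46 and 3.30 FPKM in PERK KO, against 4.32 and 3.63 FPKM in PERK WT, so the groups overlapped. The transcripts of Clec4a1, Clec4a3 and Clec4a2 differ enough for reads to be told apart in most places. Of the 50-base stretches in the GENCODE vM21 coding transcripts of Clec4a1 and of Clec4a3, 0% occurred in another gene. For Clec4a2 it was 6.69%, mostly shared with Clec4a4. How the authors' counting treated shared reads is not given in the sources used here, so the Clec4a2 value is uncertain to that extent. Identity of the longest coding transcripts was taken as identical aligned bases over the mean length of the pair. It was 64.9% for Clec4a1 and Clec4a3, 57.9% for Clec4a1 and Clec4a2, and 54.9% for Clec4a2 and Clec4a3. These transcripts were 1558 bases long for Clec4a1, 1300 for Clec4a3 and 2481 for Clec4a2. Unequal length lowers this measure, so the values do not rank how closely the genes are related.

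The promoters of the most abundant receptor and of the 3 DCIR relatives with unlike values are shown as the 250 bases before the annotated start in RefSeq (GRCm38.p6, the mm10 build), 5′ to 3′ on the strand of the gene. Capitals mark TTCNNNNGAA, the spacing bound by STAT6, the transcription factor that IL-4 activates.
Clec7a (chr6:129472780-129473029, minus strand, the first of 2 annotated starts): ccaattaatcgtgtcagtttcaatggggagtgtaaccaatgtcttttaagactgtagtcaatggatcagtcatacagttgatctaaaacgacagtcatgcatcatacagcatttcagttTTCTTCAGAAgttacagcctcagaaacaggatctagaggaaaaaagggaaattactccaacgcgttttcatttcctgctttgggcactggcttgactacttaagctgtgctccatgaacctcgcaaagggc
Clec4a1 (chr6:122921598-122921847, plus strand): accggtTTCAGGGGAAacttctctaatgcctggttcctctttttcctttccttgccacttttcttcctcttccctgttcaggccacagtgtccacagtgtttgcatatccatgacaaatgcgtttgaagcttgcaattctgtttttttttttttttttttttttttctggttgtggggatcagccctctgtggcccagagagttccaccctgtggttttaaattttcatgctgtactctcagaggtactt
Clec4a3 (chr6:122952265-122952514, plus strand, the first of 2 annotated starts): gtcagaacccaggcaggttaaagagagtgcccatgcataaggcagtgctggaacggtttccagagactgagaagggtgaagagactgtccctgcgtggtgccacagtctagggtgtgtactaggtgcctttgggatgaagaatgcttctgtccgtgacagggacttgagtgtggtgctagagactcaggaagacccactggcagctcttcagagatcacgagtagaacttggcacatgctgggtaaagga
Clec4a2 (chr6:123122440-123122689, plus strand): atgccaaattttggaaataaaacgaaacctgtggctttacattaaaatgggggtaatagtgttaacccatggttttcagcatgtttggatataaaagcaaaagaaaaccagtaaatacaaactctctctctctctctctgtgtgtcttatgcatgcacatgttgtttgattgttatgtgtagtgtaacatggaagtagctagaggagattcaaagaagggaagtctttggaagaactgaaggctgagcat

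The STAT6 letters, which read the same on both strands, were in 3 of the 9 receptors with a RefSeq promoter, namely Clec7a, Clec4a1 and Clec5a, and in 5.86% of all 27025 promoters of that length. The match of Clec5a read TTCCCCTGAA and began 98 bases before the start, that of Clec7a began 131 bases before it and that of Clec4a1 244 bases before it. Searched on both strands, the C/EBP letters TTGCNNAA were in Clec4e and Clec12a and in 9.55% of all promoters. TGATGNAA, the composite letters bound by C/EBP with ATF4, the factor downstream of PERK, were in 0 of the 9 and in 3.53% of all promoters. GAGGAAGT, bound by the myeloid factor PU.1, was in 0 of the 9 and in 2.44% of all. TGANTCA, which allows any base in the middle and is looser than the AP-1 site, was in Clec12a and in 6.87% of all. In Clec12a it read TGAATCA, which is not taken here as an AP-1 site. No match of one motif overlapped a match of another. The pairs among Clec4a1, Clec4a2 and Clec4a3 were 56.0% to 60.4% identical in these windows, within the 54.0% to 61.2% found over all pairs of the 9.

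The genes that carry the signals of these receptors were followed in 6 lists of 46 genes, of which 44 were listed in some library and 36 were tested. Limma called 0 of the 36 at an adjusted p of 0.05, and at an unadjusted p under 0.05 it gave 1 higher (Src) and 0 lower, against 0.705% and 3.52% of all tested genes. Relative to the median gene 23 of the 36 had a positive log2 change and 13 a negative one, with a median of 0.05. As deposited, both PERK KO libraries were above PERK WT for 2 of the 36, against 4.14% of tested genes, and below for 9, against 35.6%. After median-ratio scaling they were above for 7, against 15.0%, and below for 2, against 14.1%.

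Among the partner chains, Fcer1g, which encodes FcRγ, was at 661 and 512 FPKM in PERK KO, against 530 and 617 FPKM in PERK WT. Tyrobp, which encodes DAP12, was at 484 and 560 FPKM in PERK KO, against 504 and 791 FPKM in PERK WT. For both the groups overlapped, and both partner chains were far above the receptors they serve. Hcst, the DAP10 chain, was at 7.77 and 9.93 FPKM in PERK KO, against 8.82 and 10.9 FPKM in PERK WT.

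Of the kinases, Syk was at 62.4 and 51.8 FPKM in PERK KO, against 62.5 and 58.6 FPKM in PERK WT, with a log2 change of 0.05 (standard error 0.17, limma adjusted p = 0.858). Src was at 1.93 and 1.71 FPKM in PERK KO, against 0.12 and 0.95 FPKM in PERK WT. Its groups did not overlap, and its log2 change of 1.07 with a standard error of 0.30 was the highest of the 36 (limma adjusted p = 0.776), or 0.67 without PERK WT replicate 1. The related kinase Lyn, which phosphorylates ITAM and ITIM tyrosines, was far more abundant, at 33.8 and 31.2 FPKM in PERK KO, against 36.5 and 36.0 FPKM in PERK WT.

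Card9, the adaptor that links Syk to NF-κB, was at 17.7 and 17.1 FPKM in PERK KO, against 21.1 and 12.6 FPKM in PERK WT, so the PERK WT libraries lay on either side. Of the 9 genes in the CARD9 module, 4 had a positive log2 change relative to the median gene and 5 a negative one. The lowest unadjusted p values there belonged to Map3k7, the kinase TAK1, at 4.25 and 2.45 FPKM in PERK KO, against 4.13 and 4.93 FPKM in PERK WT (log2 change -0.23, standard error 0.23, or -0.01 without PERK KO replicate 2), to Traf6 (log2 change -0.04) and to Bcl10 (log2 change -0.04). None of these passed the threshold.

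In the list of 5 genes for phosphatases and CBL ligases, Ptpn6 encodes the phosphatase SHP-1 recruited by ITIMs. Ptpn6 was at 48.4 and 41.0 FPKM in PERK KO, against 45.4 and 50.8 FPKM in PERK WT, and the groups overlapped. Ptpn11, which encodes SHP-2, was at 12.3 and 9.0 FPKM in PERK KO, against 13.4 and 13.7 FPKM in PERK WT (log2 change -0.20, limma adjusted p = 0.776), or -0.07 without PERK KO replicate 2. Inpp5d, the lipid phosphatase SHIP1, was at 37.9 and 30.3 FPKM in PERK KO, against 38.9 and 44.0 FPKM in PERK WT (log2 change -0.14, standard error 0.17, limma adjusted p = 0.776).

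Of the 10 tested transcription factors downstream, 8 had a positive log2 change relative to the median gene and 2 a negative one, all between -0.09 and 0.18. The 3 with the lowest unadjusted p were Nfatc1 (log2 change -0.0045), Nfatc3 (0.0013) and Relb (-0.09). Of 13 cytokines and enzymes that these receptors induce, 5 were tested. Ccl3 was at 70.2 and 48.6 FPKM in PERK KO, against 116 and 58.4 FPKM in PERK WT, Il10 at 0.85 and 1.66 FPKM in PERK KO, against 0.49 and 1.15 FPKM in PERK WT, and Cxcl2 at 2.39 and 0.86 FPKM in PERK KO, against 1.64 and 0.78 FPKM in PERK WT. In each of them the groups overlapped. Il1b, Il6, Il12b, Il23a and Cxcl1 were at 0.15 FPKM or less in every library, and Csf2 and Csf3 were listed in none.

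**Figure D4:**
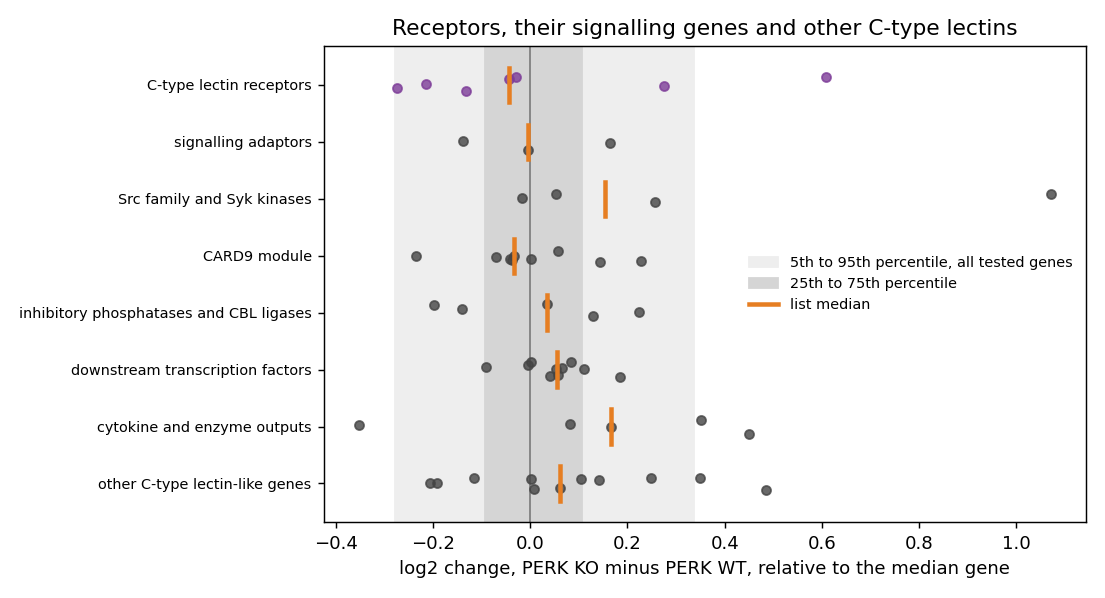
Log2 change (PERK KO minus PERK WT) relative to the median tested gene for the 7 tested receptors, the tested genes of the 6 signalling lists and the 11 tested genes of other C-type lectins. Each point is a gene, orange lines are list medians, and grey bands hold the middle of all tested genes. The list medians lie between -0.04 and 0.17, and Src at 1.07 and Clec4a1 at 0.61 lie farthest to the right.

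The other C-type lectin-like genes served as the rest of the superfamily, 31 genes of which 27 were listed in some library and 11 were tested. Limma called 0 of the 11, and at an unadjusted p under 0.05 it gave 0 in either direction, against 0.705% of all tested genes higher and 3.52% lower, so that no such call among 11 genes is near the background. Their median log2 change relative to the median gene was 0.06, with 8 positive and 3 negative. Those with the lowest p were Cd302, at 6.07 and 5.07 FPKM in PERK KO, against 7.56 and 6.93 FPKM in PERK WT (log2 change -0.19, standard error 0.15), Thbd, at 2.58 and 2.61 FPKM in PERK KO, against 3.45 and 3.14 FPKM in PERK WT (log2 change -0.12, standard error 0.16), and Mgl2, a galactose lectin and marker of IL-4 activation, at 444 and 572 FPKM in PERK KO, against 612 and 673 FPKM in PERK WT (log2 change -0.21, standard error 0.24).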

How the data were processed

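Ribosomal RNA was removed and stranded libraries were sequenced, per the labels' protocols. The deposited tables give 1 FPKM value per gene and library. HISAT, StringTie, Bowtie2 and RSEM and the build mm10 are named in the submitters' processing notes, without versions or roles, and the annotation and strand setting are not given in the sources used here. A gene missing from a library's table was taken as 0. Read counts are absent from these files, so depth is unknown and no counting intervals are given. Entrez numbers were matched to symbols for 15094 of 15114 genes.

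The 9501 genes averaging 1 FPKM or more were tested on log2(FPKM + 1) with limma 3.58.1 (R 4.3.3, mean-variance trend, two-sided, Benjamini-Hochberg adjustment, threshold 0.05), after the fit was checked on simulated data. Log2 changes on this scale understate changes of low genes. Alternatives were other scalings, filters and pseudocounts, no trend, a replicate block, and leaving out each library. Sequence windows were read with Python 3.11.15. The receptors and lists were chosen with earlier results of these data known. Named genes are all receptors, Eif2ak3, Lyz2, Fcer1g, Tyrobp, Syk, Card9, Ptpn6, and from each list any gene past the threshold and the 3 with the lowest p. Monocyte markers, Fcgr1, Isg15, Clec4a4 and the genes under closing observations were named after their values were seen. Protein sequences and the Clec4n promoter were not used here, and 1 gene that this rule names is not reported here.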

Additional observations from a re-analysis of the deposited data

How the results depend on the processing

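No receptor passed an adjusted p of 0.05 under any of the scalings, filters, pseudocounts, models or left-out libraries run, and the lowest was 0.0643, for Clec4n without PERK KO replicate 1. Of 112 receptor results under an alternative, 106 kept their direction and 6 reversed. All 6 came from leaving out 1 library: the log2 change of Clec4d then ranged from -0.24 to 0.17, of Clec4e from -0.18 to 0.51 and of Clec12a from -0.29 to 0.017. Of 319 results of the other named genes, 25 reversed. Leaving out 1 library gave Tyrobp -0.46 to 0.18, Syk -0.0051 to 0.10, Card9 -0.13 to 0.58, Ptpn6 -0.047 to 0.11, Hcst -0.25 to 0.23, Lyn -0.043 to 0.0023, Bcl10 -0.15 to 0.065, Nfatc1 -0.036 to 0.016, Nfatc3 -0.056 to 0.052, Relb -0.44 to 0.25, Ccl3 -0.85 to 0.14, Cxcl2 -0.0057 to 0.70 and Mgl2 -0.47 to 0.052. Without 1 library the values of some genes that kept their sign moved by over 1.5 times: Clec5a ranged from -0.07 to -0.02, Fcer1g from 0.05 to 0.27, Map3k7 from -0.46 to -0.01, Ptpn11 from -0.33 to -0.07, Inpp5d from -0.23 to -0.06, Il10 from 0.11 to 0.79 and Thbd from -0.20 to -0.03. With no filter Syk was at -0.029, Ptpn6 at -0.046 and Nfatc3 at -0.080, and with a mean of at least 5 FPKM Hcst was at 0.0062 and Nfatc1 at 0.0070, since the median gene differs with the genes fitted. Clec5a had no value under that filter.

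Over all genes limma called 0 higher and 2 lower, Rpl3 and Smdt1, both absent from both PERK KO tables and so taken as 0, which for a ribosomal protein gene need not mean low expression. Without 1 library it called 0 to 39 higher and 2 to 4 lower, the most without PERK WT replicate 2, and with genes listed in all 4 libraries it called 0 lower. A replicate block gave 6 higher and 8 lower and called no receptor. The libraries share only a number: across genes, the differences between replicates 1 and 2 in PERK KO and in PERK WT had a correlation of 0.078. The ratio of activating to ITIM receptors had a log2 difference of 0.25 without the most abundant receptor of each class and -0.22 to 0.16 without 1 library; the cause was not tested. For 6 of the 7 tested receptors the log2 change relative to the median gene was under 2 standard errors. As deposited, Clec4a2 was beyond that too, at -0.41 with a standard error of 0.16. A p above the threshold does not show equal levels.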

Other observations

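Other C-type lectin-like genes, inside and outside the clusters, gave the following values. Clec4b1, which encodes DCAR and couples to FcRγ, was at 4.46 and 3.30 FPKM in PERK KO, against 4.32 and 3.63 FPKM in PERK WT. Clec9a and Clec1b, receptors of dendritic cells and platelets, were at 0.38 FPKM or less in every library. Clec2d, a ligand of natural killer receptors, was at 31.8 and 39.9 FPKM in PERK KO, against 19.3 and 39.9 FPKM in PERK WT, so PERK WT replicate 1 stood low (log2 change 0.49, limma adjusted p = 0.776). Of the DC-SIGN relatives, Cd209c was at 1.13 and 1.06 FPKM in PERK KO, against 1.20 and 0.99 FPKM in PERK WT, while Cd209b, Cd209f and Cd209g were listed in no library.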
